A study of Mus musculus with 16 samples.

Results

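The genes that remodel nucleosomes, read or write Polycomb marks and methylate DNA were examined in CD4+ T cells that do or do not express Foxp3. Members were taken by gene symbol. They comprised Hells, Ring1, Bmi1, Eed, Suz12, L3mbtl3, Uhrf1, Mbd2 and every measured gene whose symbol begins with Smarca to Smarce, Ino80, Arid1 to Arid5, Baz1, Baz2, Dnmt1 or Dnmt3, or is a Chd, Cbx, Phc, Pcgf or Tet gene. The rule found 66 members among 16475 genes, and all of them entered every count. By family there were 12 genes of the BAF (SWI/SNF) complexes, 6 of the ISWI group, 9 Chd genes, 5 Ino80 genes, 3 other SNF2-type helicases, 6 other ARID genes, 14 Polycomb genes, 2 HP1 genes and 9 genes of DNA methylation.

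Remodellers are ATPases that slide, evict or exchange nucleosomes, with partner subunits that target them. Polycomb proteins act in complexes, of which a histone methyltransferase built on Eed, Suz12 and Ezh2 and a histone ubiquitin ligase built on Ring1 or Rnf2 are the best known, and both keep genes silent through cell division. Dnmt1 copies DNA methylation after replication with the help of Uhrf1, Dnmt3a and Dnmt3b place new methylation, and Tet enzymes oxidise it. In regulatory T cells a demethylated enhancer in the Foxp3 gene is known for keeping Foxp3 expression stable.

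The T cells were taken from spleen and lymph nodes of C57BL/6 mice with a GFP-Foxp3 knock-in reporter, which all samples share; the study used female mice 6 to 12 weeks old. CD4+ cells were sorted by GFP into TFoxp3+ (regulatory) and TFoxp3- (non-regulatory) cells at a purity above 97% and were used ex vivo or after 36 h on plate-bound CD3 and CD28 antibodies (5 µg/ml) with human IL-2 (100 U/ml). Cycloheximide (100 µg/ml), which holds ribosomes on mRNA, was present throughout the handling of ex vivo cells and reached activated cells when their culture ended. RNA of 2 experiments was pooled for each ex vivo sample. From each, cytosolic mRNA and polysome-associated mRNA, carrying 3 or more ribosomes, were hybridised to Affymetrix arrays, which gave 8 groups of 2 arrays. Each polysome fraction was collected by its position relative to the ribosome peak, because most polysome traces were too faint to see. All values below are log2 intensities, and differences are log2 differences with the standard error of the limma fit over all 16 arrays.

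The scan file names in the labels share 1 pattern for all ex vivo arrays, another for activated TFoxp3- cells and another for activated TFoxp3+ cells; what sets these scan files apart is not stated. Differences between activated subsets and between states cannot be told apart from any difference between these sets of scan files. The ex vivo subset comparison and every comparison of polysome-associated with cytosolic mRNA lie within a set. Array medians were 4.845 to 5.065, and a gene at or below that level is dim, so the size of its differences is uncertain. T cell markers averaged 10.07 to 11.22 on every array, and Foxp3 averaged 10.09 to 10.53 in the TFoxp3+ groups against 3.75 to 6.05 in the TFoxp3- groups. Marker lists of CD8 T and NK cells (3.56 to 4.46), B cells (3.67 to 5.53), myeloid cells (3.68 to 4.90), stromal and endothelial cells (3.81 to 4.82) and erythroid cells (3.48 to 4.46) lay near or below the array medians. Single markers lay well above them, among them Cd79b (group means of 8.05 to 8.99 ex vivo), Pecam1 (7.78) and Cd68 (6.85) in activated TFoxp3+ cytosol and Lyz2 (7.60) on activated TFoxp3+ polysomes. Ex vivo, the 3′ probe set of beta-actin exceeded the 5′ probe set by 4.16 to 4.64 in TFoxp3+ cells and 0.82 to 1.38 in TFoxp3- cells, and in activated cells the difference was -0.59 to -0.20. In these bulk samples, fewer cells that express a gene and less mRNA per cell cannot be told apart.

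The heat map of all members shows that ex vivo replicates were close and activated replicates were not. The median gap between the 2 arrays of a group was 0.21 to 0.30 for members ex vivo and 0.46 to 0.64 in activated cells. More than 1 log2 unit separated the arrays for 22 members in activated TFoxp3+ cytosolic mRNA and for 18 in TFoxp3+ polysomes. The corresponding counts were 12 and 14 in activated TFoxp3- cells and 1 to 4 in the ex vivo groups. The largest gaps were those of Ino80c in activated TFoxp3- polysomes (9.32 and 4.15) and Bmi1 in activated TFoxp3+ polysomes (3.50 and 8.06).

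**Figure D1:**
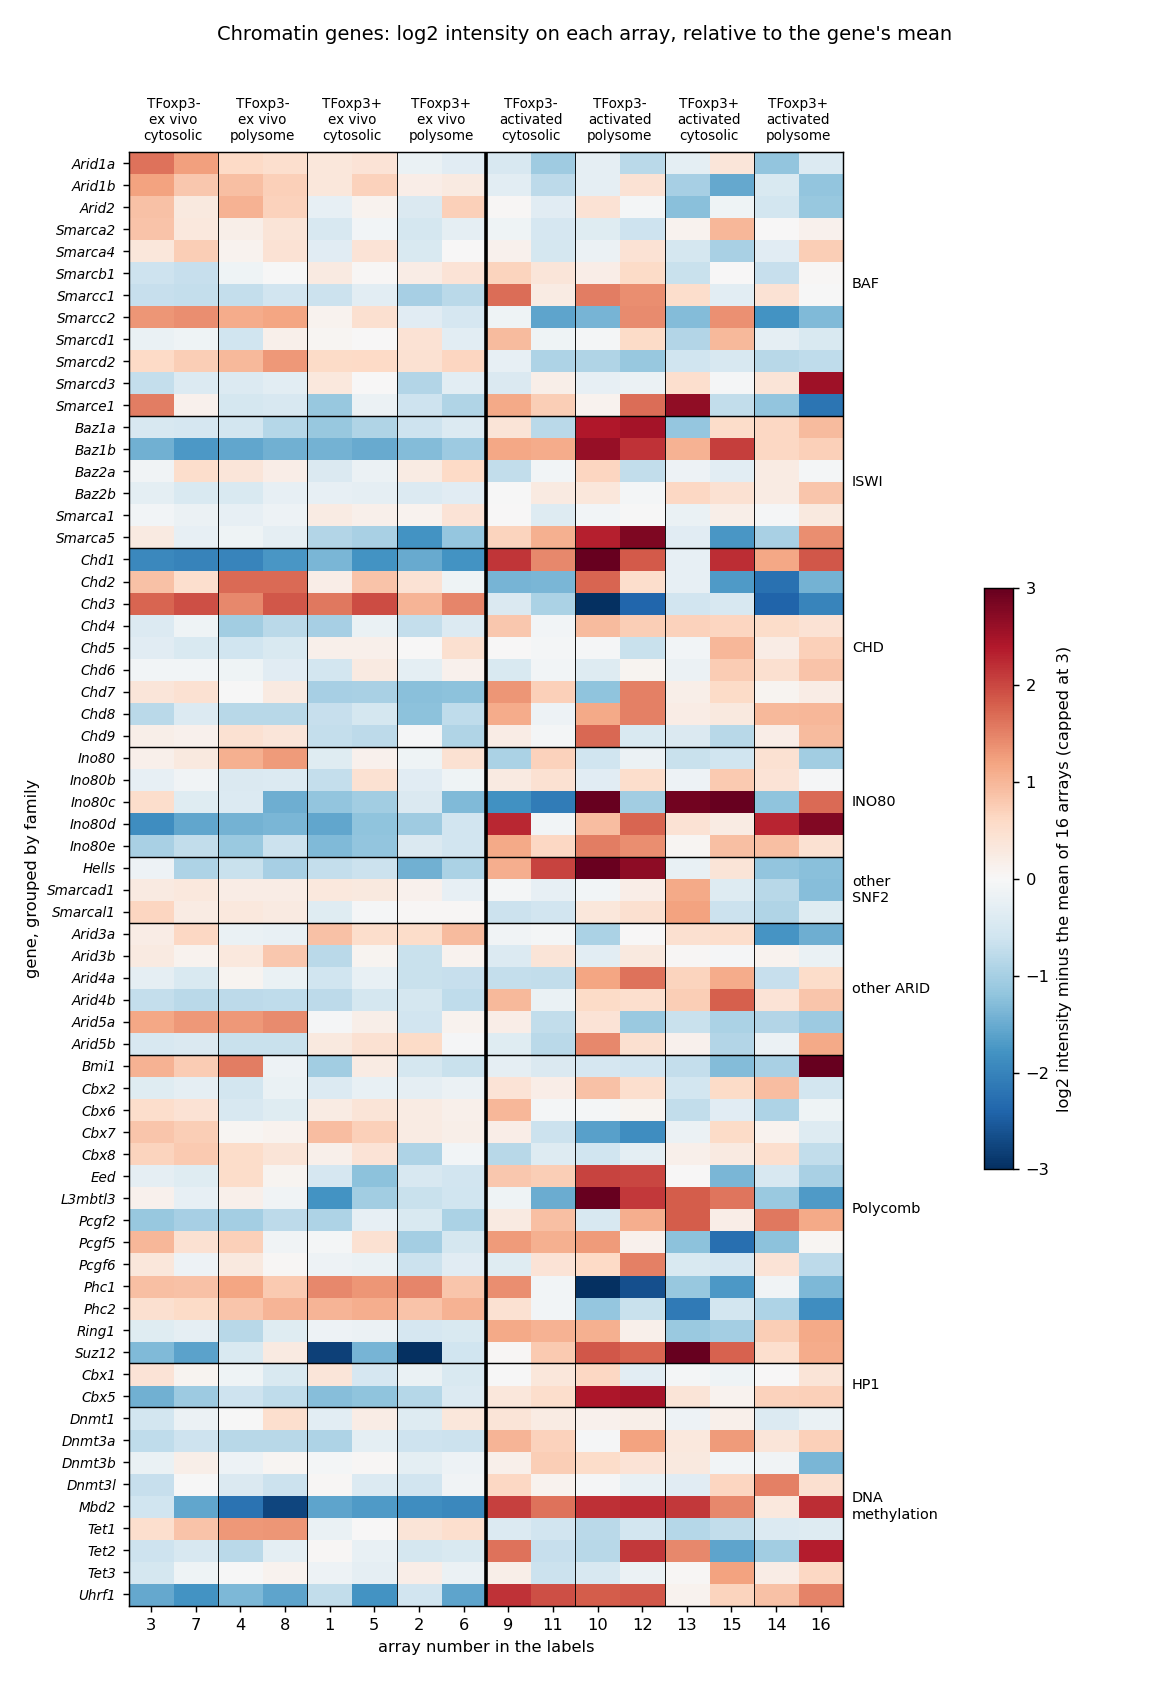
Level of each of the 66 members on each of the 16 arrays (columns, by array number), as the log2 intensity minus the gene's mean over all arrays, with the colour scale capped at 3 in either direction. Rows are grouped by family; the ex vivo and activated arrays are separated by the thick line, and single dark cells such as Bmi1 on array 16 mark replicates that differ.

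The first question was how the subsets differ in the mRNA that polysomes carry once cells are activated. Of the 66 members, 21 were lower and 6 were higher in TFoxp3+ cells at an adjusted p under 0.15, the study's threshold for this comparison. Over all genes 13.7% were called lower and 18.7% higher, so the share of members was above the background for lower calls and below it for higher calls. The study, with another fit, called far fewer genes at this threshold, more of them lower than higher in TFoxp3+ cells. The calls given here are therefore not those of the study. With only the 4 arrays compared in the fit, 7 members were lower and 1 was higher, against 3.84% and 1.35% of all genes, and with array weights 10 were lower and 3 higher, against 6.9% and 5.22%, so the share of higher calls was near the background in both. The median difference was -0.47 for members and 0.20 for all genes. Of the 27 calls, 8 held in every alternative that tested them (Hells, L3mbtl3, Eed, Chd2, Cbx5, Baz1a, Baz1b and Cbx7), and these 8 are also those left when only the 4 arrays compared were fitted. Hells, with a mean of 4.15 over all arrays, was not tested by the alternative that drops dim genes. The study presented chromatin modification, from these same samples, as a group of mRNAs under translational control after correction for cytosolic levels. In the study that group held both activated and suppressed mRNAs. Because the samples are the same, the counts and direction of the members are not independent evidence.

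**Figure D2:**
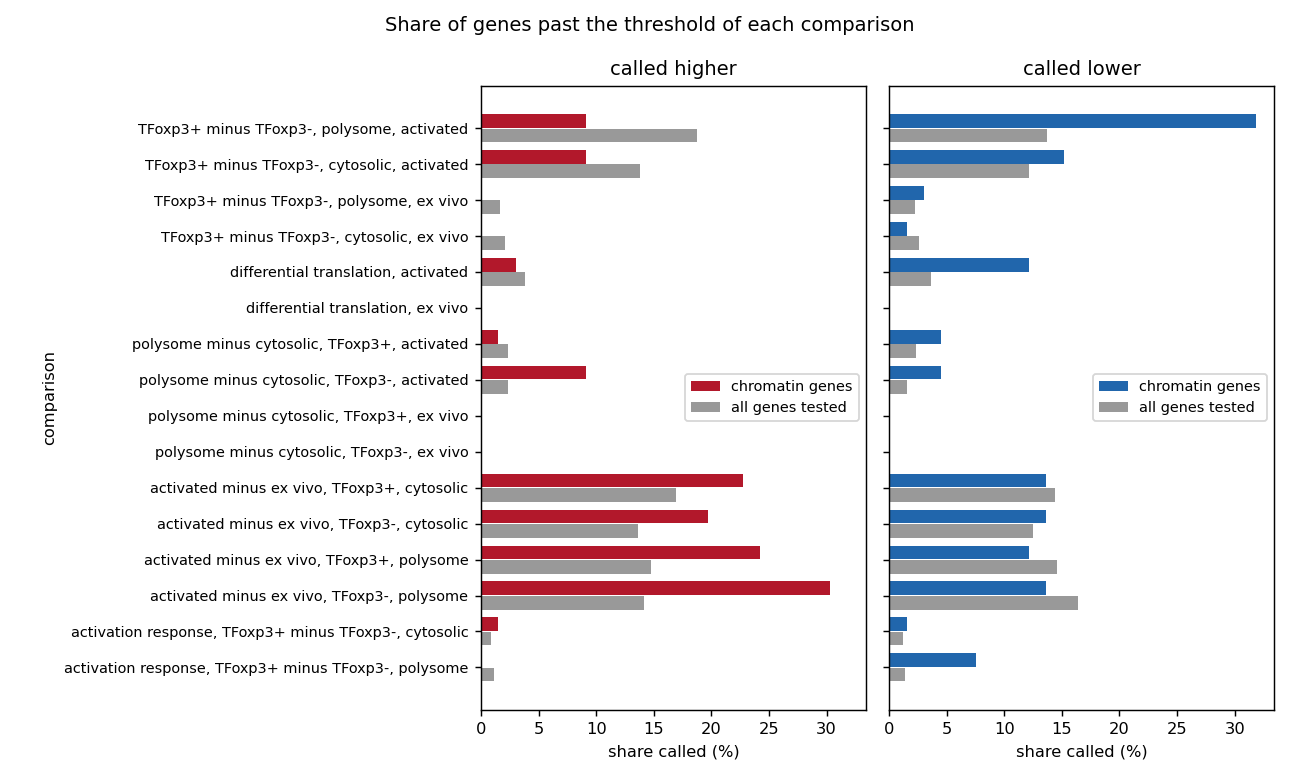
Share of members (coloured bars) and of all genes tested (grey bars) called higher (left) or lower (right) in each of the 16 comparisons, in percent, at the threshold of that comparison. In activated polysome-associated mRNA 21 members were lower in TFoxp3+ cells, and in TFoxp3- cells 20 members rose on polysomes with activation.

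Among the SNF2-type helicases outside the named complexes, Hells, which is needed for DNA methylation of repeats, was the member with the largest difference. Its polysome-associated levels were 2.98 and 2.89 in activated TFoxp3+ cells and 7.12 and 6.84 in activated TFoxp3- cells. The groups did not overlap, and the difference was -4.04 ± 0.36 (adjusted p = 0.000188, limma). Both TFoxp3+ values were below every array median, so the fold itself is uncertain. The other helicases were also lower, Smarcad1 by -1.11 ± 0.39 and Smarcal1 by -1.04 ± 0.46. The call of Smarcad1 was lost without array 12 (adjusted p = 0.241) or array 16 (0.231), and that of Smarcal1 without any of 13 arrays.

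Of the 6 ISWI genes 3 were lower. Baz1a, which with Smarca5 forms the nucleosome-spacing ACF complex, was at 6.30 and 6.62 in TFoxp3+ polysomes and 8.07 and 8.17 in TFoxp3- polysomes (difference -1.66 ± 0.49, adjusted p = 0.0429). Baz1b, the partner of Smarca5 in the WICH complex at replication sites, was at 6.06 and 6.15 against 8.03 and 7.59 (-1.71 ± 0.30, adjusted p = 0.00482). Neither gene overlapped between the subsets. Smarca5, the ATPase of these complexes, was at 5.85 and 8.23 against 9.15 and 9.63, and its difference of -2.35 ± 0.65 missed the threshold without array 14 (adjusted p = 0.162). Baz2a, Baz2b and Smarca1 did not pass the test, and Smarca1 lay between 2.22 and 3.02 on all arrays.

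Of the BAF genes, 5 were lower and 1 was higher. Smarce1, an HMG-box subunit common to BAF complexes, was at 5.11 and 4.10 in TFoxp3+ polysomes and 6.40 and 7.97 in TFoxp3- polysomes (-2.58 ± 0.93, adjusted p = 0.0815). Without array 12 its difference was -1.80 and without array 16 it was -2.08, and neither passed. Smarcc1, a core scaffold subunit, was at 7.87 and 7.43 against 8.99 and 8.85, and Arid2, a subunit of the PBAF form, at 5.33 and 4.74 against 6.33 and 5.83. Arid1b (-0.91) and Smarcb1 (-0.71) were also called lower, each by less than 1 log2 unit. Single arrays decided several of these calls: Smarcc1 was lost without array 10 or 16 (-1.20 and -1.05), Arid1b without array 12 or 16 (-0.55 and -0.54), Arid2 without any of 9 arrays and Smarcb1 without any of 10. Smarcd3, which belongs to BAF forms of muscle and heart, was called higher by 1.67 ± 0.54, but its TFoxp3+ levels were 6.17 and 8.32 and without array 16 the difference was 0.59 (adjusted p = 0.277); it was also lost without array 10 or 12. The alternative ATPases did not pass the test: Smarca4 was at 8.48 and 9.56 against 8.64 and 9.24, and Smarca2 differed by 0.55 ± 0.32 (adjusted p = 0.244).

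Among the Chd genes, Chd2, a remodeller that acts at transcribed genes, was at 3.41 and 4.25 in TFoxp3+ polysomes and 7.41 and 6.18 in TFoxp3- polysomes. The groups did not overlap, and the difference was -2.96 ± 0.51 (adjusted p = 0.00462). Chd5 (0.81) and Chd6 (0.83) were called higher, both at levels near the array medians, and each call was lost without any of 10 arrays. Of the Ino80 genes, Ino80e alone was called, lower by -0.79 ± 0.31, and it was lost without array 10, 12 or 16. Of the other ARID genes, Arid4a, an Rb-binding corepressor subunit, was lower by -1.46 ± 0.36 (4.48 and 5.72 against 6.34 and 6.78), and Arid3a by -1.16 ± 0.30 (3.94 and 4.25 against 4.77 and 5.73), the latter not without array 12 (-0.68, adjusted p = 0.163). Cbx5 (HP1 alpha), which binds methylated histone tails in heterochromatin, was at 6.86 and 6.87 against 8.58 and 8.65, a difference of -1.75 ± 0.22 (adjusted p = 0.000824). Its relative Cbx1 lay between 3.85 and 4.98 on all arrays and did not pass.

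The Polycomb genes moved in both directions, with 4 lower and 2 higher of 14. Eed, the subunit of the histone methyltransferase complex that binds its own mark, was at 7.71 and 7.22 in TFoxp3+ polysomes and 10.23 and 10.19 in TFoxp3- polysomes (-2.75 ± 0.40, adjusted p = 0.00191). L3mbtl3, a reader of methylated histones, was at 4.82 and 4.24 against 8.97 and 8.05 (-3.98 ± 0.45, adjusted p = 0.000527). Both genes were apart by more than the gap between their replicates. Pcgf5 (-1.30) and Pcgf6 (-1.25), which pair with Ring1 or Rnf2 in variant complexes, were also called lower, Pcgf5 not without array 10 or 14 and Pcgf6 not without array 12 or 16.

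The higher pair were subunits of canonical Polycomb complexes. Cbx7, a reader of the Polycomb methylation mark, was at 6.31 and 5.82 in TFoxp3+ polysomes and 4.58 and 4.35 in TFoxp3- polysomes (1.60 ± 0.32, adjusted p = 0.00899). Phc1, a polyhomeotic protein that links these complexes to each other, was at 6.99 and 5.75 against 3.91 and 4.47 (2.18 ± 0.50, adjusted p = 0.0165). Neither overlapped between the subsets. Suz12 differed by -1.0 ± 0.85 (adjusted p = 0.429), Ring1 by 0.31 ± 0.28 (0.462) and Bmi1 by 1.85 ± 1.10 (0.262). The difference of Bmi1, at 3.50 and 8.06 against 3.97 and 3.90, was the largest that did not pass, and array 16 alone was high. It was followed by those of Smarcc2 (-1.57) and Ino80c (-1.30).

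In DNA methylation, the maintenance pair did not pass the test on polysomes. Dnmt1 averaged 10.56 in TFoxp3+ cells and 11.02 in TFoxp3- cells (-0.46 ± 0.30, adjusted p = 0.294). Uhrf1 was at 9.52 and 10.12 against 10.47 and 10.51 (-0.67 ± 0.40, adjusted p = 0.265). Dnmt3b was called lower by -1.22 ± 0.37 (6.01 and 4.73 against 6.66 and 6.52), but without array 16 the difference was -0.57 (adjusted p = 0.217). Dnmt3l, a cofactor without catalytic activity, was called higher by 1.13 ± 0.42 (5.74 and 4.71 against 4.19 and 4.0), and not without array 10, 12 or 14. Dnmt3a (-0.05 ± 0.41), Mbd2, a reader of methylated DNA (-0.95 ± 0.53), and Tet3 (0.75 ± 0.39) did not pass. Tet2 could not be judged, because its replicates were at 4.07 and 7.47 in TFoxp3+ cells and at 4.27 and 7.22 in TFoxp3- cells.

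**Figure D3:**
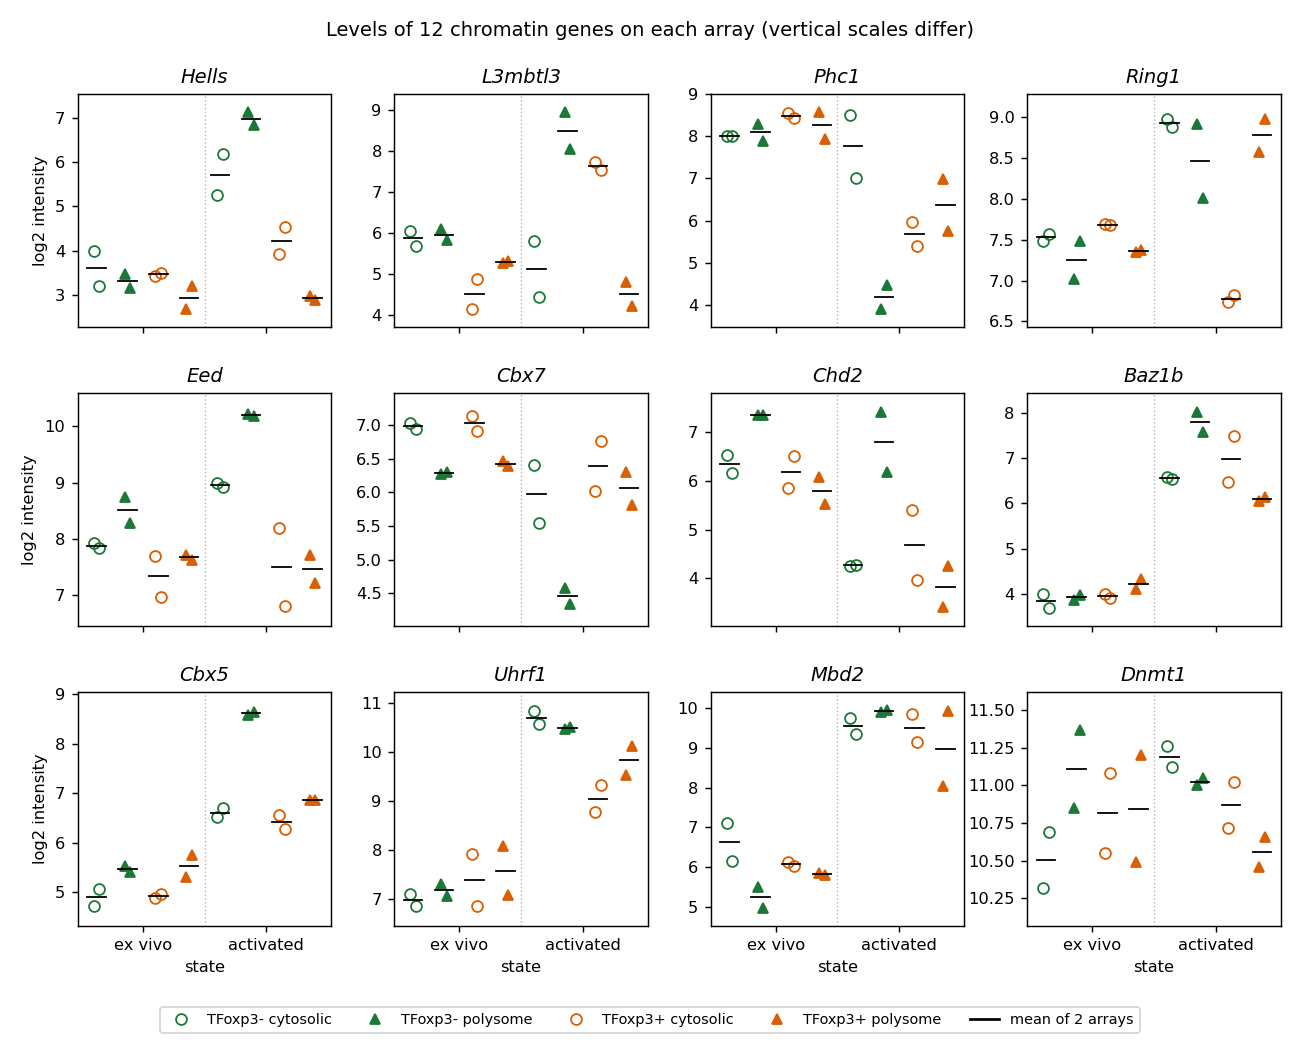
Log2 intensity of 12 members on every array, by state, subset (colour) and RNA fraction (open circles cytosolic, filled triangles polysome-associated); bars are means of 2 arrays and vertical scales differ. Hells, Eed, L3mbtl3 and Cbx5 are highest in activated TFoxp3- polysomes, while Cbx7 and Phc1 are lowest there.

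Cytosolic mRNA of the same activated cells gave a different set of calls. Of 66 members, 10 were lower in TFoxp3+ cells and 6 were higher, against 12.2% lower and 13.8% higher among all genes. The share of members lower was near the background. Here too the study called far fewer genes, more of them lower than higher in TFoxp3+ cells. The median difference was -0.14 for members and 0.13 for all genes. Polycomb genes made up 6 of the 10 lower calls. Ring1, the ubiquitin ligase subunit, was at 6.74 and 6.82 in TFoxp3+ cells and 8.98 and 8.88 in TFoxp3- cells (-2.15 ± 0.28, adjusted p = 0.0015). Pcgf5 was at 5.29 and 4.24 against 7.80 and 7.58 (-2.93 ± 0.53, adjusted p = 0.0068). Ring1, Pcgf5 and Ino80c were the calls that held in every alternative that tested them. Phc1 was at 5.96 and 5.39 against 8.50 and 7.01 (-2.08 ± 0.50), so the same gene that was higher on TFoxp3+ polysomes was lower in their cytosol. Phc2 (-1.51), Eed (-1.46) and Cbx6 (-1.01) were also lower, and Eed lost its call without array 15 (-0.76, adjusted p = 0.176). Phc2 lost its call without array 9 or 13 (-1.24 and -0.73), and Cbx6 without the same arrays (-0.48 and -0.81).

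Uhrf1, which recruits Dnmt1 to newly copied DNA, was at 8.76 and 9.31 in TFoxp3+ cytosol and 10.82 and 10.57 in TFoxp3- cytosol (-1.66 ± 0.40, adjusted p = 0.025). Hells was at 3.92 and 4.54 against 5.25 and 6.18 (-1.49 ± 0.36, adjusted p = 0.025). Both were lower without overlap. Smarca5 (-1.91) and Smarcb1 (-0.83) were called lower as well; Smarca5 lost its call without array 9, 11 or 15, and Smarcb1 without array 9 or 13. Dnmt1 differed by -0.32 ± 0.30, Dnmt3a by -0.06 ± 0.41, Dnmt3b by -0.32 ± 0.37, Tet1 by -0.29 ± 0.20, Tet3 by 0.86 ± 0.39 and Mbd2 by -0.06 ± 0.53, and none of these passed.

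The higher calls in the cytosol were L3mbtl3 at 7.75 and 7.54 against 5.81 and 4.45 (2.51 ± 0.45, adjusted p = 0.0064) and Arid4a at 5.83 and 6.27 against 4.45 and 4.43 (1.61 ± 0.36, adjusted p = 0.0165). Ino80c, a small subunit of the INO80 complex, was at 8.08 and 8.31 against 3.37 and 3.08 (4.97 ± 1.33, adjusted p = 0.0361). All 3 genes were apart by more than their replicates. Suz12, at 10.88 and 9.09 against 7.35 and 8.10, was called at 2.26 ± 0.85 but not without array 9 (1.89) or array 13 (1.36). Smarca2 (0.85) and Arid1a (0.81), the latter a subunit that defines canonical BAF, were called higher; Smarca2 lost its call without array 11 or 15, and Arid1a also without any ex vivo array. The largest differences that did not pass were those of Smarcc2 (0.89), Smarcal1 (0.89) and Arid4b (0.88).

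Values of other gene lists moved in the same comparison and are given beside these counts. Of 23 measured S phase and mitosis genes, 9 were lower and 0 higher in TFoxp3+ polysomes (median -0.76), and 10 were lower and 0 higher in their cytosol (median -0.89). The mean level of that list was 8.40 to 8.79 in activated TFoxp3+ polysomes and 9.43 to 9.44 in activated TFoxp3- polysomes. Of 30 markers of other cell types, 8 were called higher and 0 lower in TFoxp3+ polysomes, 4 of them stromal or endothelial, and 4 were higher and 0 lower in the cytosol. Over all genes 18.7% were higher and 13.7% lower on polysomes, and 13.8% higher and 12.2% lower in the cytosol. The share of these markers higher in the cytosol was thus near the background. The interquartile range of all genes was 2.62 to 2.90 on activated TFoxp3+ arrays and 3.03 to 3.43 on activated TFoxp3- arrays. Their part in the differences of the members was not tested.

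The second question was whether polysome association differed between subsets once cytosolic mRNA was taken into account. Differential translation was computed as the polysome minus cytosolic difference in TFoxp3+ cells less that in TFoxp3- cells. In activated cells 8 members were lower and 2 were higher at an adjusted p under 0.15, against 3.65% lower and 3.83% higher of all genes. The median was -0.13 for members and 0.06 for all genes. These calls depend on the estimate of the spread: with only the 8 arrays of activated cells fitted, 0 members and 0.0% of all genes were called, with array weights 4 members were, and without array 15 there were 17. The study, with another fit and a filter on slopes, called fewer genes here, more of them lower than higher in TFoxp3+ cells. The near balance of the shares of all genes is therefore not that of the study. The scatter of the subset differences in both fractions shows where the 10 called members lie.

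**Figure D4:**
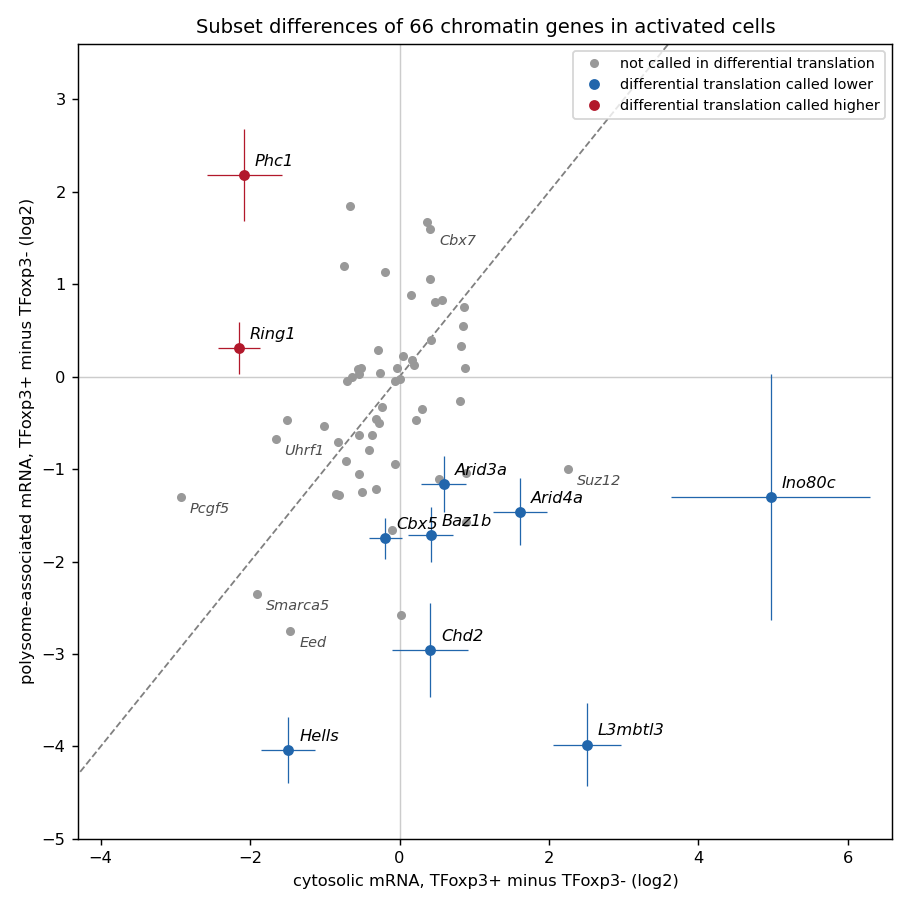
Subset difference (TFoxp3+ minus TFoxp3-, log2) of each of the 66 members in activated cells, with cytosolic mRNA on the horizontal and polysome-associated mRNA on the vertical axis; bars on coloured points are standard errors. The dashed line marks equal differences; L3mbtl3 lies at 2.51 and -3.98, while Phc1 lies on the opposite side at -2.08 and 2.18.

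L3mbtl3 turned over between the fractions. In TFoxp3+ cells its levels were 7.75 and 7.54 in the cytosol and 4.82 and 4.24 on polysomes, while in TFoxp3- cells they were 5.81 and 4.45 in the cytosol and 8.97 and 8.05 on polysomes. Its differential translation was -6.50 ± 0.64 (adjusted p = 0.00309), which also held with array weights (adjusted p = 0.0312). Chd2, nearly equal between subsets in the cytosol, had -3.37 ± 0.73, and Arid4a, higher in the TFoxp3+ cytosol and lower on polysomes, had -3.06 ± 0.50. Hells (-2.55 ± 0.51) was lower in both fractions of TFoxp3+ cells, and by more on polysomes. Baz1b (-2.12 ± 0.42), Arid3a (-1.75 ± 0.43) and Cbx5 (-1.56 ± 0.30) were called lower on TFoxp3+ polysomes and were not called in the cytosol, where their subset differences were 0.42, 0.59 and -0.19. Ino80c reached -6.27 ± 1.89 (adjusted p = 0.119), but its TFoxp3- polysome arrays were at 9.32 and 4.15 and the call was lost in 16 of 23 alternatives. Without array 10 its value was -3.68 (adjusted p = 0.167).

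Phc1 and Ring1 ran the other way, at 4.26 ± 0.71 (adjusted p = 0.0171) and 2.46 ± 0.40 (adjusted p = 0.0158). Phc1 fell from 8.50 and 7.01 in TFoxp3- cytosol to 3.91 and 4.47 on TFoxp3- polysomes, but was at 5.96 and 5.39 in TFoxp3+ cytosol and 6.99 and 5.75 on TFoxp3+ polysomes. Ring1 was at 6.74 and 6.82 in TFoxp3+ cytosol and 8.58 and 8.98 on TFoxp3+ polysomes, while in TFoxp3- cells its levels were 8.98 and 8.88 in the cytosol and 8.92 and 8.01 on polysomes. Both were lower in the TFoxp3+ cytosol, whereas on polysomes Phc1 was higher and Ring1 did not pass. Eed had -1.29 ± 0.57 (adjusted p = 0.284) and Cbx7 1.19 ± 0.45 (0.215) and neither was called, whereas an analysis of covariance of polysome-associated on cytosolic levels, the alternative closest to the study's method, called both (Eed -2.27, adjusted p = 0.0385; Cbx7 1.65, adjusted p = 0.038). That analysis called 14 members lower and 5 higher, against 8.98% and 9.16% of all genes. The study kept only genes whose slope of polysome-associated on cytosolic levels lay within set limits. No such filter was applied here. With the pairs assumed, the slopes implied by these values exceed the study's upper limit for Ring1 and Arid4a. They lie under its lower limit for Chd2, Smarca5, Smarcd3, Dnmt3l and Phc2, so these calls would not pass the study's filter. The analysis of covariance did not call Phc1 (2.16, adjusted p = 0.261), Arid3a (-0.95, adjusted p = 0.443) or Ino80c (-17.37, adjusted p = 0.403), and it gave 15.15 for Ring1 (adjusted p = 0.103). Dnmt1 (-0.14 ± 0.42), Uhrf1 (0.99 ± 0.57), Smarca4 (0.63 ± 0.59) and Arid1a (-1.06 ± 0.47) did not pass. The largest values that did not pass were Suz12 (-3.26 ± 1.20), Smarce1 (-2.61) and Bmi1 (2.51), each with a replicate gap of more than 1 log2 unit in the activated TFoxp3+ arrays.

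Within each activated subset, polysome-associated mRNA was then set against cytosolic mRNA at an adjusted p under 0.05. In TFoxp3- cells 6 members were higher on polysomes and 3 lower, against 2.36% higher and 1.52% lower of all genes. Those higher were L3mbtl3 (3.38 ± 0.45), Baz1a (2.66 ± 0.49), Chd2 (2.53 ± 0.51), Arid4a (2.12 ± 0.36), Cbx5 (2.02 ± 0.22) and Baz1b (1.25 ± 0.30). Those lower were Phc1 (-3.57 ± 0.50), Chd3, a NuRD ATPase (-2.39 ± 0.40), and Cbx7 (-1.52 ± 0.32). Without array 10 the count fell from 9 to 5, with the calls of Baz1a, Baz1b, Cbx7 and Chd2 lost, and with only the 4 arrays compared it was 0. Baz1a was lost also without array 11 or 12, Chd2 without array 9 or 11, Arid4a without array 12 (1.90), Cbx7 without array 3, 7, 9 or 12, and Baz1b without any of 12 arrays.

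In activated TFoxp3+ cells 1 member was higher and 3 were lower, against 2.31% and 2.36% of all genes. Ring1 was higher on polysomes by 2.00 ± 0.28, and L3mbtl3 (-3.12 ± 0.45), Arid3a (-2.14 ± 0.30) and Chd3 (-1.67 ± 0.40) were lower. Chd3 was thus lower on polysomes in both subsets, at 7.88 and 7.38 in TFoxp3- cytosol and 4.54 and 5.94 on polysomes, and at 7.75 and 7.84 in TFoxp3+ cytosol and 5.91 and 6.33 on polysomes. Its call in TFoxp3+ cells was lost without any activated TFoxp3+ array or any ex vivo array, at differences of -1.46 to -1.88. Without array 14, and likewise without array 15, 7 members were called, and with only these 4 arrays or with array weights 0 were. The largest differences that did not pass were those of Ino80c in both subsets (3.51 in TFoxp3- and -2.76 in TFoxp3+ cells), with Smarca5 (1.69) and Arid5b (1.55) in TFoxp3- cells and Smarce1 (-2.65) and Bmi1 (2.33) in TFoxp3+ cells.

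Ex vivo, no member differed between polysome-associated and cytosolic mRNA in either subset by limma at an adjusted p under 0.05. All genes gave 0.0303% higher and 0.00607% lower in TFoxp3+ cells, and 0.0303% higher and 0.0303% lower in TFoxp3- cells. At an unadjusted p under 0.05 there were 3 members in TFoxp3+ cells and 5 in TFoxp3- cells, against 4.69% and 4.25% of all genes. With array weights 1 member was called higher and 4 lower in TFoxp3- cells, against 1.49% and 2.54% of all genes. The largest differences were those of Pcgf5 (-0.97), L3mbtl3 (0.79) and Cbx8 (-0.78) in TFoxp3+ cells and Mbd2 (-1.40), Suz12 (1.38) and Smarce1 (-1.34) in TFoxp3- cells. Differential translation ex vivo had 0 members called at an adjusted p under 0.3, with 0.0% of all genes called higher and 0.0% lower. At an unadjusted p under 0.05 there were 0 members, against 1.17% of all genes. The largest values were Chd2 (-1.40), Suz12 (-1.30) and Ino80c (1.25). The study, by its own method, did call a small number of mRNAs at this threshold. The analysis of covariance described above called 0 members, against 0.134% higher and 0.255% lower of all genes.

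The ex vivo subsets differed in few members when the spread was estimated over all arrays. In polysome-associated mRNA 2 members were lower and 0 higher in TFoxp3+ cells, against 2.25% lower and 1.62% higher of all genes. In cytosolic mRNA 1 was lower and 0 higher, against 2.58% and 2.06%. Tet1, which oxidises methylated cytosine, was at 4.62 and 4.74 in TFoxp3+ polysomes and 5.52 and 5.56 in TFoxp3- polysomes (-0.85 ± 0.20, adjusted p = 0.0657), and at 4.02 and 4.25 against 4.74 and 5.09 in the cytosol (-0.78 ± 0.20, adjusted p = 0.0827). Arid5a, an ARID protein that also binds mRNA, was at 7.05 and 7.72 against 8.91 and 9.03 on polysomes (-1.58 ± 0.45, adjusted p = 0.139). Neither gene overlapped between the subsets, but each call was lost without any of the 4 arrays compared, at an adjusted p of 0.223 to 0.618, and that of Arid5a without any ex vivo array. The largest differences that did not pass were Suz12 (-1.92), Smarcc2 (-1.56) and Chd2 (-1.56) on polysomes and Smarce1 (-1.47), Chd7 (-1.40) and L3mbtl3 (-1.36) in the cytosol.

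A fit of only the 4 arrays compared called more members. It gave 17 lower and 4 higher of 66 on polysomes, where all genes had 11.9% lower and 8.93% higher, and 16 lower and 7 higher in the cytosol, where all genes had 16.3% lower and 15.2% higher. In that fit Smarcc2 (-1.56 and -1.08), Chd7 (-1.37 and -1.40), Arid5a (-1.58 and -1.16), Arid1a (-0.82 and -1.05), Smarca5 (-1.28 and -0.93), Smarca2 (-0.68 and -0.87) and Tet1 were lower on TFoxp3+ polysomes and in their cytosol, and Arid5b (0.93 and 0.82) and Chd5 (0.76 and 0.54) were higher in both. Replicates of these groups were close. Chd7, the helicase mutated in CHARGE syndrome, was at 3.81 and 3.83 against 5.06 and 5.33 on polysomes, and Smarcc2, a BAF scaffold subunit, at 6.80 and 6.64 against 8.25 and 8.32. These subsets also differed in the beta-actin 3′ to 5′ value given above, and its part was not tested. Dnmt1, Dnmt3a, Dnmt3b, Tet3, Uhrf1, Mbd2 and Hells were not called in the ex vivo subset comparisons with the spread taken from all arrays, from the 4 arrays compared or with array weights.

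The third question was the response to activation. At an adjusted p under 0.05, 20 members rose and 9 fell on polysomes of TFoxp3- cells, where 14.1% of all genes rose and 16.4% fell. On polysomes of TFoxp3+ cells 16 rose and 8 fell, against 14.7% and 14.6%. In the cytosol 13 rose and 9 fell in TFoxp3- cells, against 13.6% and 12.5%, and 15 rose and 9 fell in TFoxp3+ cells, against 16.9% and 14.4%. The share of members that rose exceeded the background in all 4 comparisons and the share that fell was near it. Member medians were 0.44 and 0.40 on polysomes of TFoxp3- and TFoxp3+ cells and 0.11 and 0.12 in the cytosol. Of the 37 members called on polysomes in either subset, 16 (43.2%) were called in both, close to the 41.2% of all genes called in either; each subset has its own ex vivo arrays, but the scan files of all ex vivo arrays are of 1 set.

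**Figure D5:**
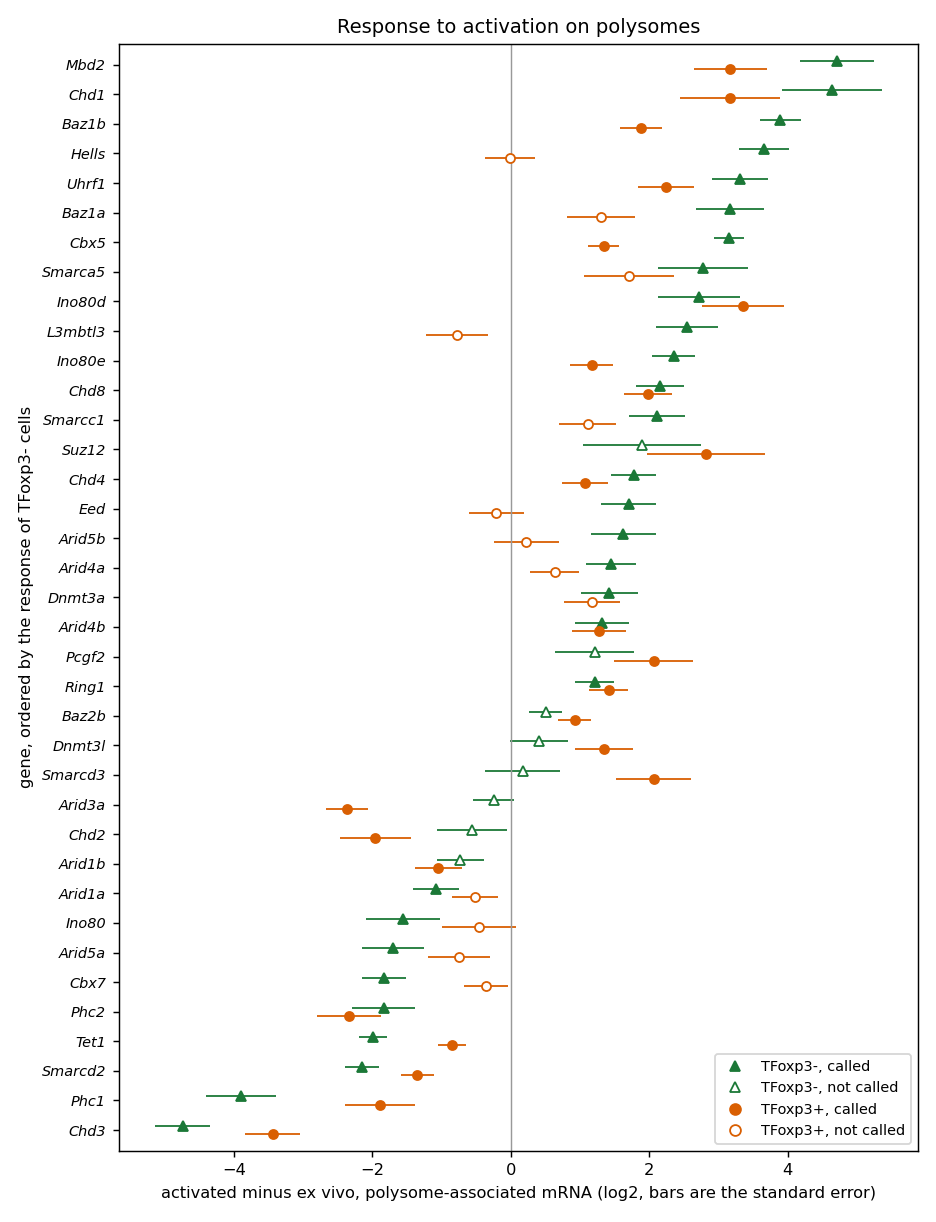
Activated minus ex vivo difference in polysome-associated mRNA (log2, with standard error) for the 37 members called in TFoxp3- cells (triangles) or TFoxp3+ cells (circles); filled symbols passed an adjusted p under 0.05. Mbd2 and Chd1 rose in both subsets, Chd3 and Phc1 fell in both, and Hells is at 3.66 in TFoxp3- cells and -0.01 in TFoxp3+ cells.

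Several of the larger rises were called in both subsets. Mbd2, which reads methylated DNA and brings in NuRD, rose on polysomes from 5.49 and 4.97 to 9.91 and 9.96 in TFoxp3- cells (4.71 ± 0.53) and from 5.84 and 5.79 to 8.03 and 9.93 in TFoxp3+ cells (3.17 ± 0.53). In the cytosol it rose by 2.92 ± 0.53 and 3.43 ± 0.53. Chd1, a remodeller that binds active promoters, rose from 4.61 and 4.85 to 10.31 and 8.43 in TFoxp3- polysomes (4.64 ± 0.72) and from 5.07 and 4.79 to 7.74 and 8.44 in TFoxp3+ polysomes (3.16 ± 0.72). Baz1b rose from below the array medians in all 4 comparisons, by 3.89 ± 0.30 and 1.88 ± 0.30 on polysomes and by 2.72 ± 0.30 and 3.02 ± 0.30 in the cytosol of TFoxp3- and TFoxp3+ cells. Cbx5, Ino80d and Ino80e also rose in all 4, with Cbx5 at 1.34 to 3.15, Ino80d at 1.72 to 3.35 and Ino80e at 1.17 to 2.35. Chd8, a Chd protein mutated in autism, rose in both polysome comparisons (2.15 ± 0.35 and 1.98 ± 0.35), and Chd4, the main NuRD ATPase, rose by 1.77 ± 0.33 and 1.07 ± 0.33 there. In TFoxp3+ polysomes the calls of Chd4 were lost without array 2, 6, 14 or 16, of Ino80e without array 2, 6 or 14 and of Chd1 without array 6. In TFoxp3+ cytosol Chd1 was lost without array 1, 5 or 15, where it was at 1.34 to 2.77, and Ino80d without any of 10 arrays.

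Within the DNA methylation genes, Uhrf1 was called with activation and its partner in maintenance methylation, Dnmt1, was not. Uhrf1 rose on polysomes from 7.30 and 7.05 to 10.47 and 10.51 in TFoxp3- cells (3.31 ± 0.40) and from 8.08 and 7.07 to 9.52 and 10.12 in TFoxp3+ cells (2.24 ± 0.40); in the cytosol it rose by 3.72 ± 0.40 and 1.66 ± 0.40. The last of these was lost without array 5 (1.13, adjusted p = 0.104) or array 15 (1.38, adjusted p = 0.0608). Dnmt1 averaged 11.11 ex vivo and 11.02 after activation on TFoxp3- polysomes (-0.09 ± 0.30) and was called in none of the 16 comparisons. In TFoxp3- cytosol Dnmt1 was at 10.32 and 10.69 ex vivo and 11.26 and 11.12 after activation, a difference that did not pass (0.68 ± 0.30, adjusted p = 0.115, limma). Its levels lay between 10.32 and 11.37 over all arrays. Dnmt3a rose in TFoxp3- polysomes (1.42 ± 0.41) and in the cytosol of both subsets (1.54 ± 0.41 and 1.40 ± 0.41), and missed the threshold in TFoxp3+ polysomes (1.17 ± 0.41, adjusted p = 0.052). Tet1 fell in all 4 comparisons, by -1.99 ± 0.20 and -0.85 ± 0.20 on polysomes and -1.19 ± 0.20 and -0.70 ± 0.20 in the cytosol, to levels of 3.38 to 3.84, below the array medians. The calls of Dnmt3a were lost without array 4, 8 or 12 in TFoxp3- polysomes, array 3, 7 or 9 in TFoxp3- cytosol and array 1 or 15 in TFoxp3+ cytosol, and those of Tet1 in TFoxp3+ cells without array 6 on polysomes and array 1, 5 or 13 in the cytosol. Dnmt3b, Tet2 and Tet3 did not pass in any activation comparison. Dnmt3l rose in TFoxp3+ polysomes alone (1.34 ± 0.42), and not without array 2, 6 or 14.

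The sequences upstream of Hells, Dnmt1 and Uhrf1 are shown because these genes serve DNA methylation at replication and their calls with activation differed. Windows of 250 bases before and 50 bases after each RefSeq start (GRCm38.p6) were searched on both strands for the E2F-type sites TTTCCCGC and TTTGGCGC and the CHR-type site TTTGAA, which are known from cell cycle promoters. A match is printed in capitals, in the orientation of the gene. Of 32851 such windows of all genes, 1.07% held TTTCCCGC, 0.514% held TTTGGCGC and 17.9% held TTTGAA.
Hells (chr19:38930740-38931039, plus strand): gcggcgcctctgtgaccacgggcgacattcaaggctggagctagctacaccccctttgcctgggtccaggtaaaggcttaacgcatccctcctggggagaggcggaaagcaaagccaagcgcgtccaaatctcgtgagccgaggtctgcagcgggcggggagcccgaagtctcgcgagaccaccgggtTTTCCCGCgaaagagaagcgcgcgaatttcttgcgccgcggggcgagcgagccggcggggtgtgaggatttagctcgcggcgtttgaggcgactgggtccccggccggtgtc
Dnmt1 (chr9:20952574-20952873, minus strand): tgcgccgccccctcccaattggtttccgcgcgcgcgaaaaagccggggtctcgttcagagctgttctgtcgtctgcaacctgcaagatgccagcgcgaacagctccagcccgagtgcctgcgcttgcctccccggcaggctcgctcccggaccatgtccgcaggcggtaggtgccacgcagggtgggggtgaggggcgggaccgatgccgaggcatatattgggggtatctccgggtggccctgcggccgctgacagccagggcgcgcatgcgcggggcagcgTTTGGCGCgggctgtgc
Uhrf1 (chr17:56304063-56304362, plus strand): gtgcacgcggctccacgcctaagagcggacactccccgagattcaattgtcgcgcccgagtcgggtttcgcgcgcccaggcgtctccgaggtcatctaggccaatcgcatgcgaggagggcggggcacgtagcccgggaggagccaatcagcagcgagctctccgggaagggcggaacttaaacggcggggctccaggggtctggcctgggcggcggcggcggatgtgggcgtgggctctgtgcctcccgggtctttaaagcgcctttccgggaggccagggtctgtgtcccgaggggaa

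The Hells window held TTTCCCGC 62 bases before the start, and the Dnmt1 window shown held TTTGGCGC 34 bases after it. Neither Uhrf1 window held any of the motifs as spelled, the earlier Dnmt1 window at chr9:20959839-20960138 held the CHR-type site alone, and the window at chr9:20952930-20953229 held none. The 3 motifs do not overlap each other in the windows shown. Of the 66 members, 53 had at least 1 window, and 5 of these held an E2F-type site (Arid1a, Dnmt1, Hells, Smarcd1 and Suz12) and 7 the CHR-type site. Of all 27025 genes with a window, 1.8% held an E2F-type site and 20.2% the CHR-type site. Among members with an E2F-type site, Hells was called higher with activation in TFoxp3- cells, Suz12 higher in TFoxp3+ cells and Arid1a lower in TFoxp3- cells, while Dnmt1 and Smarcd1 were not called.

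Among Polycomb genes, Suz12, the zinc finger subunit of the methyltransferase complex, rose in TFoxp3+ cells from 4.51 and 5.93 to 10.88 and 9.09 in the cytosol (4.77 ± 0.85, adjusted p = 0.00197) and from 3.87 and 6.73 to 7.82 and 8.42 on polysomes (2.82 ± 0.85, adjusted p = 0.0283). The polysome call was lost without array 2 (1.39), 14 (3.12) or 16 (2.52). In TFoxp3- cells its differences were 1.88 ± 0.85 and 1.89 ± 0.85 and did not pass. Eed rose in TFoxp3- polysomes alone, by 1.70 ± 0.40 (adjusted p = 0.00783), and lost this call without array 8 (1.48, adjusted p = 0.0692). Ring1 rose on polysomes of both subsets (1.21 ± 0.28 and 1.41 ± 0.28) and in TFoxp3- cytosol (1.40 ± 0.28), but fell in TFoxp3+ cytosol (-0.91 ± 0.28, adjusted p = 0.0328). The fall in TFoxp3+ cytosol lost its call in 10 of 22 alternatives. Phc1 fell by -3.90 ± 0.50 and -1.89 ± 0.50 on polysomes and by -2.81 ± 0.50 in TFoxp3+ cytosol, and Phc2 by -1.84 ± 0.46, -2.34 ± 0.46 and -2.39 ± 0.46 in the same 3 comparisons. Cbx7 fell in TFoxp3- polysomes (-1.83 ± 0.32) and cytosol (-1.01 ± 0.32). Pcgf2 rose in TFoxp3+ polysomes (2.06 ± 0.57), and not without array 6 or 14 (1.81 and 1.83) or array 2 (2.31). Pcgf5 fell in TFoxp3+ cytosol (-1.94 ± 0.53), Cbx8 fell in TFoxp3- cytosol (-1.32 ± 0.38), and Bmi1 was called in no comparison. Single arrays decided part of these calls: Ring1 on TFoxp3- polysomes was lost without array 4 or 10, Phc1 on TFoxp3+ polysomes without array 2 or 16, Phc2 on TFoxp3- polysomes without array 8 or 10, Pcgf5 without array 1, 5 or 15, Cbx8 without array 3, 7 or 9 and Cbx7 in TFoxp3- cytosol without any of 9 arrays.

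Other falls were led by Chd3, which went from 9.77 and 10.19 to 4.54 and 5.94 on TFoxp3- polysomes (-4.74 ± 0.40) and from 9.33 and 9.78 to 5.91 and 6.33 on TFoxp3+ polysomes (-3.44 ± 0.40); it also fell in the cytosol, by -2.53 ± 0.40 and -2.29 ± 0.40. Chd3 and Chd4, alternative ATPases of NuRD, thus moved in opposite directions on polysomes of both subsets. Smarcd2, a BAF subunit of blood cells, fell in all 4 comparisons by -1.12 to -2.15. Arid1a fell in TFoxp3- cells in the cytosol (-2.21 ± 0.33) and on polysomes (-1.08 ± 0.33), while in TFoxp3+ cells its differences of -0.35 ± 0.33 and -0.52 ± 0.33 did not pass. Arid1b fell in both cytosols (-1.79 ± 0.34 in TFoxp3+ and -1.56 ± 0.34 in TFoxp3- cells) and in TFoxp3+ polysomes (-1.05 ± 0.34). Smarca4 was not called in any comparison, and Smarca2 in no activation comparison. Chd2 fell in 3 comparisons (-1.51 to -2.07) but not on TFoxp3- polysomes (-0.56), and Arid5a fell in TFoxp3- cells (-1.70 ± 0.45 on polysomes and -1.51 ± 0.45 in the cytosol). Without single arrays, Arid1a on TFoxp3- polysomes was lost (array 4, 8 or 12), as were Arid5a on polysomes (4, 8 or 12) and in the cytosol (3, 7 or 11), Arid1b on TFoxp3+ polysomes (2, 4, 6, 8 or 16) and in TFoxp3- cytosol (3), and Chd2 on TFoxp3+ polysomes (2 or 14), in TFoxp3- cytosol (3 or 11) and in TFoxp3+ cytosol (any of 11 arrays).

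Several rises were called on TFoxp3- polysomes without being called on TFoxp3+ polysomes. They were Hells (3.66 ± 0.36), Baz1a (3.16 ± 0.49), Smarca5 (2.77 ± 0.65), L3mbtl3 (2.54 ± 0.45), Smarcc1 (2.11 ± 0.41), Eed, Arid5b (1.62 ± 0.47), Arid4a (1.45 ± 0.36) and Dnmt3a. Smarca5 and Arid4a were lost without array 8 or 12, and Arid5b without array 4, 8 or 10. Whether such responses differ between subsets was tested by the difference of the activation responses, at an adjusted p under 0.05. On polysomes 5 members were lower in TFoxp3+ cells and 0 higher, against 1.43% lower and 1.15% higher of all genes. Hells was at -3.67 ± 0.51 (adjusted p = 0.00759, limma) and was the call that held in every alternative that tested it. The alternative that drops dim genes did not test Hells, whose mean over all arrays was 4.15. L3mbtl3 was at -3.32 ± 0.64, Arid3a at -2.13 ± 0.43, Baz1b at -2.01 ± 0.42 and Cbx5 at -1.81 ± 0.30. For Baz1b and Cbx5 both subsets rose, so the difference was in size. Arid3a fell in TFoxp3+ polysomes (-2.37 ± 0.30) and was at -0.25 ± 0.30 in TFoxp3- polysomes. Baz1a, Smarca5, Smarcc1, Eed, Arid5b, Arid4a and Dnmt3a did not pass this test of the difference (adjusted p of 0.11 to 0.887, limma). Without single arrays the count was 1 to 8, lowest without array 4, 6 or 8 and highest without array 14; it was 2 without array 2 and 3 without array 10.

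In cytosolic mRNA 1 member was higher and 1 lower in this test, against 0.856% higher and 1.21% lower of all genes. L3mbtl3 rose in TFoxp3+ cytosol from 4.15 and 4.89 to 7.75 and 7.54, while in TFoxp3- cytosol it was at 6.07 and 5.70 ex vivo and 5.81 and 4.45 after activation (difference of responses 3.88 ± 0.64, adjusted p = 0.0149). Ring1 differed by -2.31 ± 0.40 (adjusted p = 0.0179). Ring1 lost its call without any of the ex vivo arrays 1, 3, 5 or 7, and L3mbtl3 without array 1, 3 or 7, at an adjusted p of 0.0529 to 0.092. The count was 0 without array 1, 3 or 7, 1 without array 5, and 4 or 5 without an activated TFoxp3+ array. Smarca2 (1.73 ± 0.45, adjusted p = 0.0757), Arid1a (1.86 ± 0.47, 0.0709) and Uhrf1 (-2.06 ± 0.57, 0.0952) did not pass, nor did the larger values of Ino80c (6.17), Suz12 (2.88) and Phc1 (-2.57). On polysomes the largest that did not pass were Bmi1 (3.14), Smarce1 (-2.33) and Phc1 (2.01).

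Counts of the activation responses moved with single ex vivo arrays. In TFoxp3+ cytosol the 24 calls became 13 without array 1 and 15 without array 5, and in TFoxp3+ polysomes the 24 became 13 without array 2 and 15 without array 6. In TFoxp3- cells the 22 cytosolic calls became 13 without array 3, and the 29 polysome calls became 19 without array 8. Fits of only the 4 arrays compared gave 15 calls in TFoxp3+ cytosol and 14 in TFoxp3+ polysomes. Calls that held in every alternative that tested them numbered 18 on TFoxp3- polysomes, 10 on TFoxp3+ polysomes, 12 in TFoxp3- cytosol and 10 in TFoxp3+ cytosol; Baz1b, Cbx5 and Chd3 were among them in all 4. The S phase and mitosis list rose in all 4 comparisons, in 22 and 18 of 23 genes on polysomes of TFoxp3- and TFoxp3+ cells and in 21 and 12 in the cytosol. Of the 30 markers of other cell types, 0 rose and 7 fell on TFoxp3- polysomes, 4 rose and 5 fell on TFoxp3+ polysomes, 3 rose and 6 fell in TFoxp3- cytosol and 5 rose and 2 fell in TFoxp3+ cytosol. Over all genes 13.6% to 16.9% rose and 12.5% to 16.4% fell in these 4 comparisons. The beta-actin 3′ to 5′ value also differed between states, and the part of these in the members' responses was not tested.

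Partners of the members, taken from lists of further subunits, were counted in the same main fit. Unlike those of the members, partner calls were not examined with single arrays left out or under the other alternatives. In activated polysome-associated mRNA, 6 of 19 Polycomb partners were lower and 1 higher in TFoxp3+ cells (median -0.37), where 13.7% of all genes were lower and 18.7% higher. Ezh2, the methyltransferase that works with Eed and Suz12, averaged 6.32 on TFoxp3+ and 9.97 on TFoxp3- polysomes (-3.65 ± 0.82, adjusted p = 0.015). Yaf2 (-3.51 ± 0.56), Mtf2 (-2.62 ± 0.47) and Asxl2 (-1.54 ± 0.23) were lower as well. Of 13 partners of INO80 and SRCAP, 5 were lower and 0 higher, led by Uchl5, a deubiquitinase (-4.63 ± 0.92), Actr6 (-1.24 ± 0.27) and Znhit1 (-1.08 ± 0.27). Of 9 NuRD partners 2 were lower, Hdac2 by -3.18 ± 0.80 and Rbbp7 by -1.02 ± 0.25, and of 10 other remodelling genes 4 were lower, among them Btaf1 (-2.08 ± 0.30) and Atrx (-1.63 ± 0.31). BAF partners had 4 lower and 3 higher of 14, ISWI partners 1 lower of 6, and DNA methylation partners 4 lower and 5 higher of 21, led by Zbtb33 (-2.40 ± 0.32), Dppa3 (1.03 ± 0.20) and Cdca7, which binds Hells (-2.0 ± 0.41). The shares of the DNA methylation partners were near those of all genes.

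In the cytosol Hdac2 (-4.36 ± 0.80), Ezh2 (-2.75 ± 0.82), Uchl5 (-3.34 ± 0.92), Rbbp7 (-1.23 ± 0.25) and Cdca7 (-1.19 ± 0.41) were lower in TFoxp3+ cells too. Bap1, a deubiquitinase that removes the mark of Ring1, was lower by -3.02 ± 0.27, and L3mbtl2, a relative of L3mbtl3, by -3.02 ± 0.47. In differential translation 2 Polycomb partners were higher and 3 lower of 19, against 3.83% and 3.65% of all genes: Bap1 (2.66 ± 0.38) and L3mbtl2 (2.92 ± 0.66) were higher, as Phc1 and Ring1 were, and Asxl2 (-1.63 ± 0.32) and Mtf2 (-3.06 ± 0.67) were among the lower. Bap1 averaged 6.74 in TFoxp3+ cytosol and 8.0 on TFoxp3+ polysomes, against 9.76 and 8.37 in TFoxp3- cells. Atrx (-2.07 ± 0.44) and Btaf1 (-1.61 ± 0.42) were lower in this comparison, whereas Ezh2 and Uchl5 were not called in it. With only the 8 activated arrays fitted, 0.0% of all genes were called in differential translation, so none of these partner calls held there.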

How the data were processed

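Cytosolic and polysome-associated mRNA was amplified with the Ovation Pico WTA system and hybridised to Affymetrix arrays. Log2 intensities, normalized by the authors with RMA and summarised to Entrez-gene probe sets, were deposited for 16 arrays; the sources used here do not say whether both states were normalized in a single run. All 16 value columns were matched to samples by their labels. After removal of 64 control probe sets, 16475 genes were tested, of which 15780 had a symbol and 695 had none; 6 symbols that the rule would take were not among the measured genes.

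Means of the 8 groups were fitted with limma 3.58.1 (R 4.3.3) on the deposited log2 values of all 16 arrays (8 residual degrees of freedom, median residual SD 0.349), and p-values (two-sided) were adjusted by Benjamini-Hochberg over all genes. The thresholds of the study were used where it stated them: 0.15 for subset comparisons and differential translation in activated cells, taken over to the ex vivo subset comparisons, and 0.3 for differential translation ex vivo. Other comparisons used 0.05. The study's method for translation, anota-RVM, was not run; the interaction of subset and fraction was tested, with an analysis of covariance as an alternative. Precision is limited by having 2 arrays in a group. Standard errors and p-values of the main fit rest on a spread between replicates shared by all 8 groups, not on that of the groups compared. For pooled RNA this spread may be partly technical. The median replicate gap over all genes was 0.17 to 0.23 ex vivo and 0.34 to 0.47 in activated groups. Standard errors and p-values may therefore be too small for comparisons within activated cells and too large for those within ex vivo cells.

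Members, gene lists and motifs were chosen with earlier results of these data known. Values are given for the members listed by name, for Dnmt, Tet, Smarca2, Smarca4, Arid1a and Cbx7, for up to 4 called members per family and direction with the largest difference, and for the 3 largest differences that were not called. Partner genes are those with the smallest adjusted p in a list; Ezh2, Cdca7, Hdac2, Rbbp7 and Uchl5 in the cytosol, and Ezh2 throughout, and the single markers of other cell types were named after their values were seen. Alternatives were leaving out each array, a filter on dim genes, cyclic loess, median centring, an intensity trend, array weights and a fit restricted to the arrays compared. The array weights were the same for both arrays of a group, so they could not lower the part of a single deviant array. The fit was run on simulated data in which all arrays of a gene had the same spread. That simulation therefore says nothing about the unequal spread of ex vivo and activated groups. Promoter windows came from RefSeq (GRCm38.p6). Python 3.11.15, pandas 2.3.3 and matplotlib 3.10.9 were used.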

Additional observations from a re-analysis of the deposited data

Results flagged for a closer look

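Groups of 2 arrays were not tested for an array that stands apart. The results below are those in which the subsets differed in a contrast, each by a test of the difference itself.

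In activated cells the polysome minus cytosolic difference was lower in TFoxp3+ than in TFoxp3- cells for L3mbtl3 (-6.50), Ino80c (-6.27), Chd2 (-3.37), Arid4a (-3.06), Hells (-2.55), Baz1b (-2.12), Arid3a (-1.75) and Cbx5 (-1.56). It was higher in TFoxp3+ cells for Phc1 (4.26) and Ring1 (2.46). Each of these except Ino80c remained past the threshold when any array was left out, and none of the 10 passed when only the 8 activated arrays were fitted. In the analysis of covariance Phc1 (2.16), Arid3a (-0.95) and Ino80c (-17.37) did not pass and the other 7 did, with Ring1 at 15.15. Unlike the study's method, that analysis did not filter genes by slope, and by their implied slopes Ring1, Arid4a and Chd2 would not pass the study's filter.

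The activation response in polysome-associated mRNA was lower in TFoxp3+ cells for Hells (-3.67), L3mbtl3 (-3.32), Arid3a (-2.13), Baz1b (-2.01) and Cbx5 (-1.81). In cytosolic mRNA it was higher for L3mbtl3 (3.88) and lower for Ring1 (-2.31). Of these 7, Hells alone remained past the threshold when any array was left out, and the sets of scan files of the activated subsets cannot be told apart from the subsets.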

How the results depend on the processing

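No called value of a member changed sign under any alternative. With only the groups compared in the fit, the number of members called in activated cells fell from 27 to 8 (subsets, polysomes), 16 to 3 (subsets, cytosol), 10 to 0 (differential translation), 4 to 0 and 9 to 0 (polysome against cytosol in TFoxp3+ and TFoxp3- cells). For the activation response it fell from 24 to 15 in TFoxp3+ cytosol, from 24 to 14 on TFoxp3+ polysomes and from 5 to 2 for the difference of responses on polysomes, while ex vivo it rose from 2 to 21 on polysomes and from 1 to 23 in the cytosol. Array weights gave 13, 7, 4 and 0 for the activated subset comparisons on polysomes and in the cytosol, differential translation, and polysome against cytosol in TFoxp3+ cells, 24 and 21 for the ex vivo subset comparisons, and 5 against 0 for polysome against cytosol in ex vivo TFoxp3- cells. The ex vivo polysome count of 2 became 1 with an intensity trend, cyclic loess or the filter on dim genes, and the cytosolic count of 1 became 2 with median centring or cyclic loess and 0 with the filter. Analysis of covariance, which took arrays of consecutive numbers as pairs, called 19 members for differential translation against 10, where calls over all genes rose from 3.83% to 9.16% higher and from 3.65% to 8.98% lower. It applied no filter on slopes, whereas the study did, and several of the 19, Ring1, Arid4a and Chd2 among them, would not pass that filter. All groups shared 1 estimate of the spread in the main fit. The median replicate gap over all genes was 0.17 to 0.23 in the ex vivo groups and 0.34 to 0.47 in the activated groups. The part of this in the shifts was not tested. Leaving out each array gave 20 to 31 and 13 to 20 calls for the activated subsets on polysomes and in the cytosol, 0 to 4 and 0 to 3 ex vivo, 9 to 17 for differential translation in activated cells and 0 to 0 ex vivo, 3 to 7 and 5 to 11 for polysome against cytosol in activated TFoxp3+ and TFoxp3- cells and 0 to 0 in both ex vivo subsets, 13 to 26 and 13 to 28 for activation in the cytosol of TFoxp3+ and TFoxp3- cells, 13 to 29 and 19 to 31 on their polysomes, and 0 to 5 and 1 to 8 for the difference of responses in the cytosol and on polysomes. No 2 arrays carry the same number and the labels state no pairs, so a replicate block was not fitted; the analysis of covariance assumes its pairs. Genes near the array medians are dim, and sizes of their differences are uncertain.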
